A study of Mus musculus with 6 samples.

Results

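Meiotic recombination genes and meiotic cohesin genes were followed in sorted spermatogonia as a set of 10 genes, chosen by name: *Spo11*, *Mei1*, *Mei4*, *Rec114* and *Prdm9* (double-strand break formation and placement), *Dmc1* and *Meiob* (strand exchange), and *Rec8*, *Stag3* and *Smc1b* (meiosis-specific cohesin). All 10 were among the 53657 gene names in the count files, and all 10 passed the expression filter that left 19656 genes to be tested. Of the 6 adult mice, 3 were wild type (WT) and 3 carried the heterozygous *Hras* G12V mutation (MUT). Both groups carried *Gfra1-creERT2* and a Cre-dependent tdTomato reporter and received tamoxifen, so the driver, the reporter and the drug were shared, and the MUT mice additionally carried the flox-and-replace allele that exchanges 1 wild-type *Hras* copy for the mutated one after recombination. Controls were littermates without that allele, on a mixed genetic background. RNA came from tdTomato-positive cells bright for MCAM, a surface protein used to enrich undifferentiated spermatogonia, sorted 3 months after tamoxifen. Because the *Gfra1* promoter drives the recombinase, tdTomato also marks the progeny of the recombined cells, so the MCAM gate is what separates undifferentiated spermatogonia from later germ cells.

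In meiosis, programmed double-strand breaks are made by SPO11 together with an accessory complex that includes REC114, MEI4 and MEI1, at sites that the histone methyltransferase PRDM9 marks in mouse. The broken ends are coated and paired with the homologous chromosome by the recombinase DMC1 and by MEIOB, a single-strand DNA-binding protein of meiosis, while a cohesin ring that contains REC8, STAG3 and SMC1B holds sister chromatids together. Breaks are made in spermatocytes, after the mitotic divisions of the spermatogonia, and the mitotic cohesin subunits RAD21, STAG1, STAG2 and SMC1A serve dividing cells in general.

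Each library held between 22729292 and 23550433 counts, so that 3 counts, taken as the floor of detection, corresponded to between 0.127 and 0.132 CPM, the count scaled to a common library size. The targeted gene *Hras* was counted 1300, 1407 and 1542 times in the WT mice and 1600, 1594 and 1426 times in the MUT mice. Reads from either allele enter this count, so it does not check the genotype labels. The labelled cell type was checked against 8 markers of undifferentiated spermatogonia, whose summed level ran from 1457 to 1954 CPM in WT and from 1693 to 2002 CPM in MUT, with no marker at 0 in any sample. Transcripts listed as markers of other cells were present too, and in bulk samples the cells they came from are not known. The summed level of 10 spermatocyte markers ran from 780.2 to 1204 CPM in WT and from 857 to 1052 CPM in MUT, and that of 8 spermatid markers from 1082 to 1804 and from 740.4 to 1428 CPM. The 6 differentiating spermatogonia markers summed to between 627 and 699.8 CPM in WT and to between 719 and 877 CPM in MUT, so that the groups did not overlap (p = 0.1 in a two-sided exact permutation test, the lowest that 3 against 3 allow). That p was not adjusted over the marker lists. Of the genes of the list, named here after their values were seen, only *Stra8* and, narrowly, *Sohlh2* separated the groups. *Kit*, *Sohlh1*, *Dmrtb1* and *Rhox13* overlapped. Of all single genes tested, 7.69% separated the groups in either direction. Somatic lists summed to between 57.2 and 143 CPM for Sertoli cells, 12.9 and 67.2 for Leydig cells (highest in MUT replicate 3), 435 and 773 for macrophages, 7.90 and 12.8 for peritubular myoid cells, 51.9 and 61.2 for endothelial cells, and 24.8 and 105 for lymphocytes, and no gene of these lists was at 0 in any sample. In bulk samples, fewer cells of a type and less RNA per cell cannot be told apart.

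All 10 genes were detected in every sample, from 80 counts (*Meiob* in WT replicate 1) to 7805 counts (*Stag3* in MUT replicate 2). Compared per length, as TMM-normalized CPM per kb of exon averaged over the 6 samples, the 2 most abundant were the cohesin genes *Smc1b* at 61.6 ± 4.25 (SD, n = 6) and *Stag3* at 55.3 ± 2.29 (SD, n = 6). They stood above 96.7% and 96.1% of the genes tested, and although their ranges met, *Smc1b* was above *Stag3* in 6 of 6 samples. All samples were divided by the same exon lengths, so their agreement does not check those lengths. In CPM, without that division, *Stag3* (303 to 338) was above *Smc1b* (226 to 277) in each sample. The order of these genes thus depends on the exon lengths used. *Dmc1* followed at 22.8 ± 4.16 (SD, n = 6), below every value of *Stag3* and above every value of *Rec114*. From there on each gene overlapped with the next: *Rec114* at 14.0 ± 1.06, *Rec8* at 11.8 ± 1.58, *Mei1* at 9.86 ± 1.34, *Meiob* at 5.31 ± 2.60, *Spo11* at 5.08 ± 0.871, *Prdm9* at 3.14 ± 0.739 and *Mei4* at 2.73 ± 0.305 CPM per kb (SD, n = 6 for each). *Meiob* and *Spo11* could not be ordered, since each was above the other in 3 of 6 samples. *Mei4*, the lowest, still stood above 43.3% of the genes tested. The 3 cohesin genes were thus not alike, *Rec8* being well below *Stag3* and *Smc1b*. Its value was near that of the break-forming gene *Rec114*, but the value of *Rec114* may be too low. Of the 1277 exon bases of *Rec114*, 344 are shared with another gene, and fragments assigned to both were left out. The place of *Rec114* between *Dmc1* and *Rec8* is therefore uncertain.

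**Figure D1:**
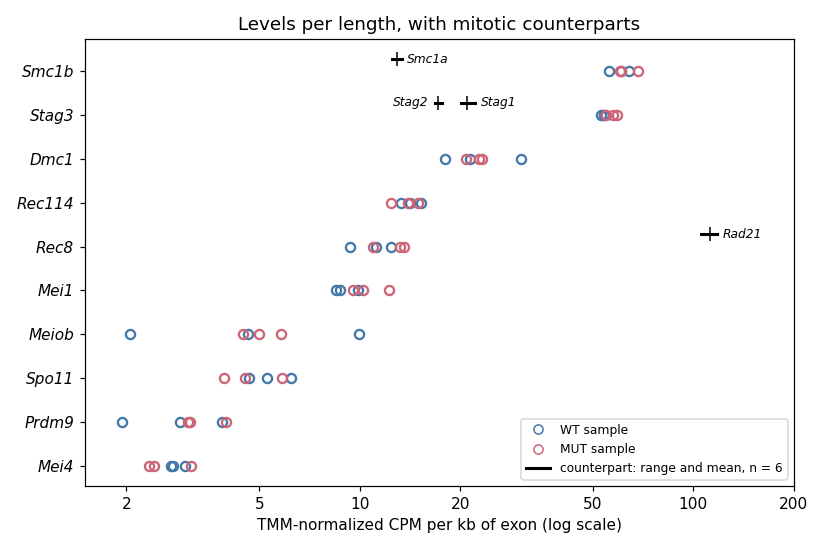
Level of the 10 genes per length, as TMM-normalized CPM per kb of exon on a log axis, with 1 open circle per sample (blue WT, red MUT) and, in black above the gene it resembles, the range and mean of the mitotic counterpart over the 6 samples. *Smc1b* and *Stag3* lie far to the right of their counterparts *Smc1a*, *Stag1* and *Stag2*, whereas *Rec8* lies far to the left of *Rad21*.

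Against their mitotic counterparts, the meiotic subunits stood on different sides. *Smc1b* was at between 4.36 and 5.23 times the level per kb of *Smc1a* (12.9 ± 0.353 CPM per kb, SD, n = 6), and *Stag3* was at between 2.50 and 2.81 times that of *Stag1* and between 3.07 and 3.38 times that of *Stag2*. *Rec8*, in contrast, reached between 7.91% and 12.2% of the level of *Rad21*, the mitotic kleisin, which was at 112 ± 4.79 CPM per kb (SD, n = 6). Each of these directions held in 6 of 6 samples. The size of the ratios depends on the exon lengths used. Without division by length the directions stayed the same, but *Stag3* (303 to 338 CPM) exceeded *Stag1* (237 to 262 CPM) by less. MUT and WT overlapped in each ratio, and the MUT minus WT differences in log2 ratio ran from 0.026 for *Stag3* over *Stag1* to 0.20 for *Rec8* over *Rad21*. Exact two-sided permutation tests gave p between 0.2 and 0.7 over 4 ratios (0.7 for each with Benjamini-Hochberg adjustment), but 3 against 3 samples cannot give a p below 0.1, so these tests do not show that the ratios were alike.

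**Figure D2:**
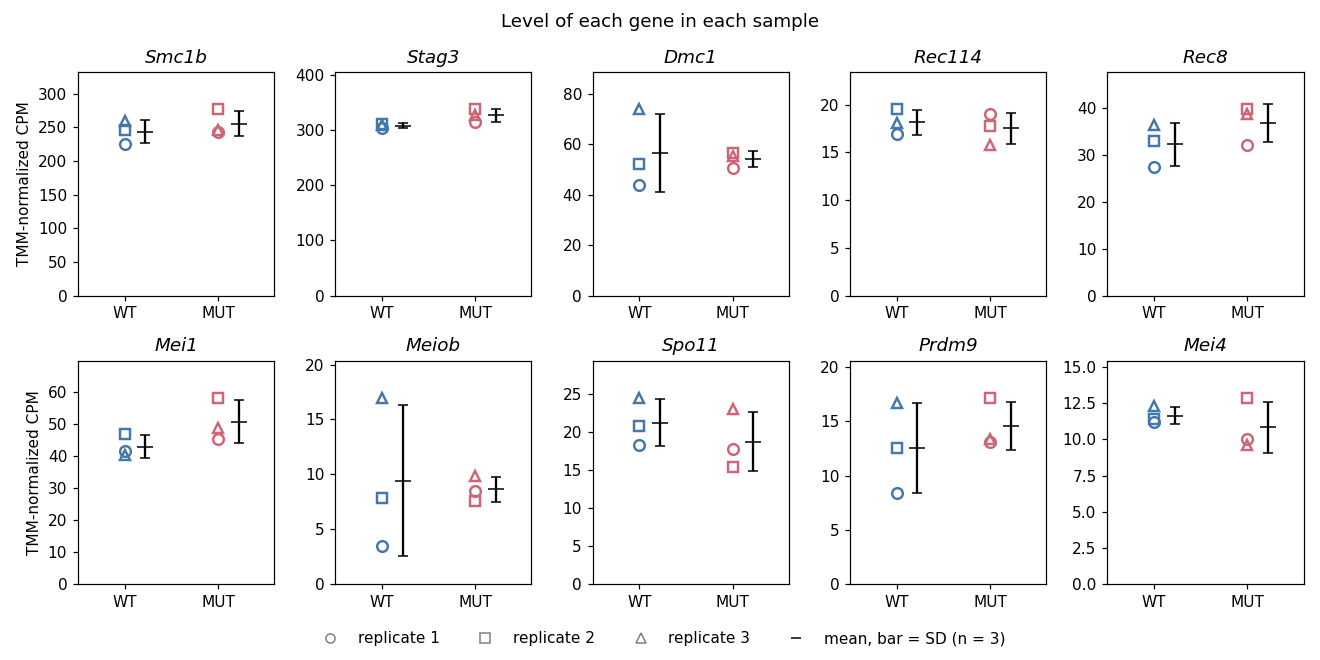
TMM-normalized CPM of each gene in each sample, WT in blue and MUT in red, with a symbol for each replicate number and the mean and SD of the group in black (n = 3), on linear axes from 0 that differ between panels. *Stag3* is the gene whose MUT samples all lie above the WT samples, and the WT samples of *Meiob* spread from 3.49 to 17.0 CPM.

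The genes of break formation came first in the comparison of MUT with WT. *Spo11*, on the plus strand of chromosome 2 from 172977700 to 172993576 in GRCm38, encodes the protein that cuts the DNA. Its level was 18.3, 20.7 and 24.4 CPM in WT replicates 1 to 3 and 17.8, 15.3 and 22.9 CPM in MUT replicates 1 to 3. Both MUT replicates 1 and 2 were below the WT samples, MUT replicate 3 lay among them, and the log2 fold change was -0.18 (standard error 0.17, edgeR).

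*Mei1* (chromosome 15, 82069996 to 82126814, plus strand) encodes a protein required for break formation. It was at 41.4, 46.9 and 40.3 CPM in WT replicates 1 to 3 and at 45.3, 58.0 and 48.5 CPM in MUT replicates 1 to 3. Here 2 of 3 MUT samples were above every WT sample, and WT replicate 2 overlapped with MUT replicate 1. The log2 fold change was 0.24 (standard error 0.11, 95% confidence interval -0.0066 to 0.49, unadjusted p = 0.0551 and adjusted p = 0.998 from edgeR), and 0.12 without MUT replicate 2. In each same-numbered pair, a pairing assumed from the labels, MUT was higher than WT. A block for the number gave an unadjusted p of 0.0164 and an adjusted p of 0.534 in edgeR.

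*Mei4* (chromosome 9, 81863670 to 82206007, plus strand) and *Rec114* (chromosome 9, 58652850 to 58743964, minus strand) encode partners in the accessory complex. *Mei4* was at 11.2, 11.4 and 12.3 CPM in WT replicates 1 to 3 and at 9.99, 12.9 and 9.64 CPM in MUT replicates 1 to 3. Its MUT samples surrounded the WT samples, with MUT replicate 2 above and the other two below (log2 fold change -0.10, standard error 0.14). *Rec114* was at 16.9, 19.5 and 18.1 CPM in WT replicates 1 to 3 and at 19.0, 17.8 and 15.8 CPM in MUT replicates 1 to 3, with overlapping groups (log2 fold change -0.051, standard error 0.11). Of the exon bases of *Rec114*, 344 of 1277 (26.9%) are shared with *Nptn* on the opposite strand, a gene with between 2775 and 3238 counts. Since strand was not used in counting and fragments assigned to several genes were left out, the count of *Rec114* is uncertain and may be too low. No exon of the other 9 genes overlapped another gene of the files.

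*Prdm9* (chromosome 17, 15543079 to 15564354, minus strand), which encodes the methyltransferase that places the breaks, was at 8.38, 12.5 and 16.7 CPM in WT replicates 1 to 3 and at 13.1, 17.1 and 13.4 CPM in MUT replicates 1 to 3. Its WT samples spread over 1.99 times, and the MUT samples fell into the upper part of that spread, with MUT replicate 2 just above it. The log2 fold change was 0.22 (standard error 0.23).

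Promoter sequences were read from RefSeq for 8 of the 10 genes, with 2 starts for *Prdm9*, and the 250 bases before each of the 9 starts were searched on both strands for 4 motifs (letters as given). The motifs were GCGGGAA, an E2F motif, CACGTG, an E-box, CCTCAG, the core of the element bound by STRA8, the factor that starts meiosis, and TGACGTC, a CRE core. GCGGGAA was present before *Smc1b* and 1 start of *Prdm9* (3.82% of all 32817 promoters of this length held it), CACGTG before *Rec114* and *Stag3* (6.02% of all promoters), CCTCAG before that same start of *Prdm9* (22.3%), and TGACGTC before none (2.78%). The windows of *Prdm9* and *Rec114* that held a match and did not overlap an exon are shown because they let the positions be seen, together with that of *Dmc1*, which held none. Capitals mark the matches, and each runs 5′ to 3′ on the gene's strand in GRCm38.p6. The first lies at chr17:15564355-15564604, the second at chr9:58741560-58741809 and the third at chr15:79605110-79605359, all on the minus strand.
*Prdm9*: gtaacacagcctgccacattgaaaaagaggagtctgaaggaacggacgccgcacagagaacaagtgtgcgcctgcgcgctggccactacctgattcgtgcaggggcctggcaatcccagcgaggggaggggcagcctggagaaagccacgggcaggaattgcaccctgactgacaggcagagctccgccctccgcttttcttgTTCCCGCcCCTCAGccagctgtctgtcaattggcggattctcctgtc
*Rec114*: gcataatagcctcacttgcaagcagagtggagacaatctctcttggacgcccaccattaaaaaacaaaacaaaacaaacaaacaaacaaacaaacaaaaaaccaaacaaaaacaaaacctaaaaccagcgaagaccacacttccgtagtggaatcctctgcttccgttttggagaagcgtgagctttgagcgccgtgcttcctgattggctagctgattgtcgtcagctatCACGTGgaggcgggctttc
*Dmc1*: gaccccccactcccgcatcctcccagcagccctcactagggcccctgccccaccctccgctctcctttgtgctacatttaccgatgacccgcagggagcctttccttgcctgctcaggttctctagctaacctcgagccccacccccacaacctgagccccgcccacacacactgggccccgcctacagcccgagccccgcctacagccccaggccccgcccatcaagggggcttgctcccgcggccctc
In *Prdm9* the E2F motif, read on the opposite strand, begins 47 bases before the start and CCTCAG begins 39 bases before it, so that 1 base separates them and the matches do not overlap. The E-box of *Rec114* begins 19 bases before that start, which lies inside the gene as the count files define it. The window of *Mei1* begins at 82082226, inside that gene, which begins at 82069996, so the bases before its outermost start were not searched. The windows of *Stag3* and of the other *Prdm9* start lie inside their genes too. A match in these letters is a description of the sequence and does not show that a factor binds there.

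Of the strand-exchange genes, *Dmc1* (chromosome 15, 79561497 to 79605109, minus strand) was at 43.8, 52.1 and 74.0 CPM in WT replicates 1 to 3 and at 50.7, 56.5 and 55.6 CPM in MUT replicates 1 to 3. All 3 MUT samples lay inside the WT range (log2 fold change -0.061, standard error 0.17). *Meiob* (chromosome 17, 24804382 to 24839787, plus strand) was counted 80, 184 and 402 times in the WT mice and 195, 176 and 231 times in the MUT mice, which corresponds to 3.49, 7.85 and 17.0 CPM and to 8.51, 7.62 and 9.86 CPM.

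WT replicate 3 had 4.86 times the *Meiob* level of WT replicate 1, while the 3 MUT samples differed by at most 1.29 times. A total of 2151 genes tested, *Meiob* among them, had a mean level within 1.5 times that of *Meiob*. Of these, 0.232% had a ratio at least as large among the WT samples, and their median ratio was 1.29. *Meiob* was singled out here after its spread was seen, so this share is a description only. The log2 fold change of *Meiob* was -0.12 (standard error 0.46, 95% confidence interval -1.17 to 0.92). Its sign depended on the method and on WT replicate 3. With every mouse kept, the log2 fold change was positive in limma voom (0.14). It was positive too in the fits blocked on replicate number (0.072 for edgeR, 0.14 for DESeq2). In edgeR without a block, it was -0.51 without WT replicate 1 and 0.61 without WT replicate 3. For *Dmc1* the value was 0.18 without WT replicate 3.

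Of the meiotic cohesin genes, *Stag3* and *Smc1b* had the smallest standard errors of the 10. *Stag3* (chromosome 5, 138280240 to 138312393, plus strand), a subunit of all meiosis-specific cohesin complexes, was at 303, 310.4 and 310.1 CPM in WT replicates 1 to 3 and at 314, 338 and 328 CPM in MUT replicates 1 to 3. The lowest MUT sample lay above the highest WT sample (p = 0.1 in a two-sided exact permutation test, the lowest possible), and the log2 fold change was 0.086 (standard error 0.067, 95% confidence interval -0.068 to 0.24, adjusted p = 0.998 from edgeR). Scaled by library size alone, without TMM, the groups overlapped.

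*Smc1b* (chromosome 15, 85064689 to 85131964, minus strand), the meiotic counterpart of *Smc1a*, was at 226, 245 and 259 CPM in WT replicates 1 to 3 and at 244, 277 and 246 CPM in MUT replicates 1 to 3, with overlapping groups and a log2 fold change of 0.071 (standard error 0.084). *Rec8* (chromosome 14, 55618037 to 55625395, plus strand), the meiotic kleisin, was at 27.4, 32.9 and 36.5 CPM in WT replicates 1 to 3 and at 32.1, 39.7 and 38.6 CPM in MUT replicates 1 to 3. Of its MUT samples 2 were above every WT sample, and the gene differed by 0.19 on the log2 scale (standard error 0.13, unadjusted p = 0.165 in edgeR). In each same-numbered pair *Rec8*, *Stag3* and *Mei1* were higher in MUT, and *Spo11* was lower in MUT in each. Pairing by number is an assumption, since no source gives the litters. The share of all genes with the same direction in every pair was not counted.

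**Figure D3:**
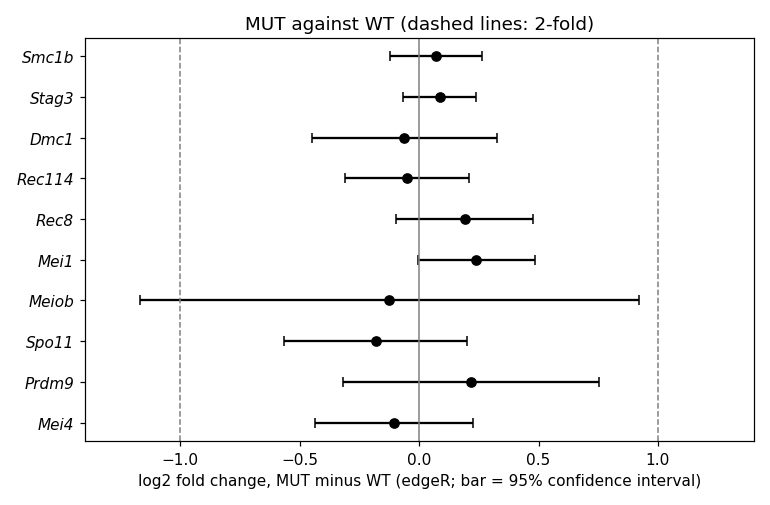
Log2 fold change of each gene, MUT minus WT, from edgeR's quasi-likelihood fit, with its 95% confidence interval and dashed lines at a 2-fold change in either direction. The interval of *Meiob* crosses a dashed line, and those of the other 9 genes lie between the lines and include 0.

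None of the 10 genes passed an FDR of 0.1 in edgeR (0 of 10), against 0.0102% of all 19656 genes tested, and 0 of the 10 had an unadjusted p under 0.05, against 2.78% of all. DESeq2 likewise called 0 of 10 (0.0241% of all genes), with 0 at an unadjusted p under 0.05 (1.18% of all), and limma voom called 0 of 10. Blocking on the replicate number, edgeR called 0 of 10, with 1 gene (*Mei1*) at an unadjusted p under 0.05, where 0.0661% of all genes were called and 6.6% had such a p. A total of 5 log2 fold changes were positive and 5 negative, with a median of 0.0100, against 0.0066 over all genes tested. By role, the 3 cohesin genes were positive (median 0.086), the 2 strand-exchange genes negative (median -0.093), and the 5 genes of break formation split into 2 positive and 3 negative (median -0.051). Roles hold few genes and were not tested, and the signs of *Dmc1*, *Meiob*, *Smc1b* and *Rec114* changed in some alternative fits.

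MUT and WT did not overlap for 1 of 10 genes with MUT higher (*Stag3*), where 4.69% of all genes tested did so, and for 0 of 10 with MUT lower, where 3% did (7.69% in either direction). The confidence intervals bound the size of any difference. For 9 of 10 genes the 95% confidence interval lay within a 2-fold change in either direction, and for 8 of 10 within a 1.5-fold change, compared with 81.6% and 59.1% of all genes tested. The exceptions were *Meiob* for both and *Prdm9* (-0.32 to 0.75 on the log2 scale) for the narrower bound. A p that misses the threshold does not show that the groups were alike.

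Differences between mice within a group were shared by several of the 10 genes. Among the WT samples, replicate 1 was the lowest for 9 of 10 genes (all but *Mei1*), and replicate 3 was the highest for 7 of 10. Among the MUT samples, replicate 2 was the highest for 7 of 10 and replicate 1 the lowest for 6 of 10. The sum of the 10 genes was 699.5 CPM in WT replicate 1 and between 754 and 839.9 CPM in the other 5 samples. Most of that sum was *Stag3* and *Smc1b*. With each gene weighted alike (mean centred log2 CPM), WT replicate 1 was again the lowest (-0.30). By that measure WT replicate 3 was the highest (0.22), and MUT replicate 2 was the highest within MUT (0.094).

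Marker lists of several other cell types also varied between these libraries. The summed level of the spermatocyte markers was 780.2, 901 and 1204 CPM in WT replicates 1 to 3 and 857, 909 and 1052 CPM in MUT replicates 1 to 3, with WT replicate 1 the lowest of the WT samples for 8 of the 10 markers and WT replicate 3 the highest for 9 of 10. The Sertoli cell markers were at 57.2, 103 and 143 CPM in WT replicates 1 to 3 and at 86.6, 121 and 112 CPM in MUT replicates 1 to 3. Their sum was lowest in WT replicate 1 and, within MUT, highest in replicate 2, as the sum of the 10 genes was. Much of the Sertoli sum was *Clu*, at 33.9, 70.5 and 102 CPM in WT replicates 1 to 3. *Sox9* and *Wt1* of that list were lowest in WT replicate 2. *Clu*, *Sox9* and *Wt1* were named after their values were seen. The lymphocyte markers were at 38.2, 65.2 and 105 CPM in WT replicates 1 to 3 and at 24.8, 25.5 and 41.9 CPM in MUT replicates 1 to 3. Most of the rise in WT was *Jchain*, at 12.2, 42.5 and 69.7 CPM in WT replicates 1 to 3. *Cd3e* and *Ptprc* of that list were lowest in WT replicate 2. These genes were named after their values were seen. WT replicate 1 was the lowest of the WT samples for 4 of 7 Sertoli and 3 of 5 lymphocyte markers. Among the WT samples, the spermatid markers (1450, 1082 and 1804 CPM) and macrophage markers (567, 521 and 773 CPM) were lowest in replicate 2. Replicate 1 was the lowest there for the Leydig, peritubular myoid and differentiating spermatogonia lists and the highest for the endothelial list. In the WT samples the markers of undifferentiated spermatogonia fell from replicate 1 to replicate 3, at 1954, 1809 and 1457 CPM in WT replicates 1 to 3 and at 2002, 1693 and 1695 CPM in MUT replicates 1 to 3. MUT replicate 2, the highest MUT sample for most of the 10 genes, had the highest sum of differentiating spermatogonia markers (877 CPM). Whether other cells contributed to the levels of the 10 genes was not tested.

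**Figure D4:**
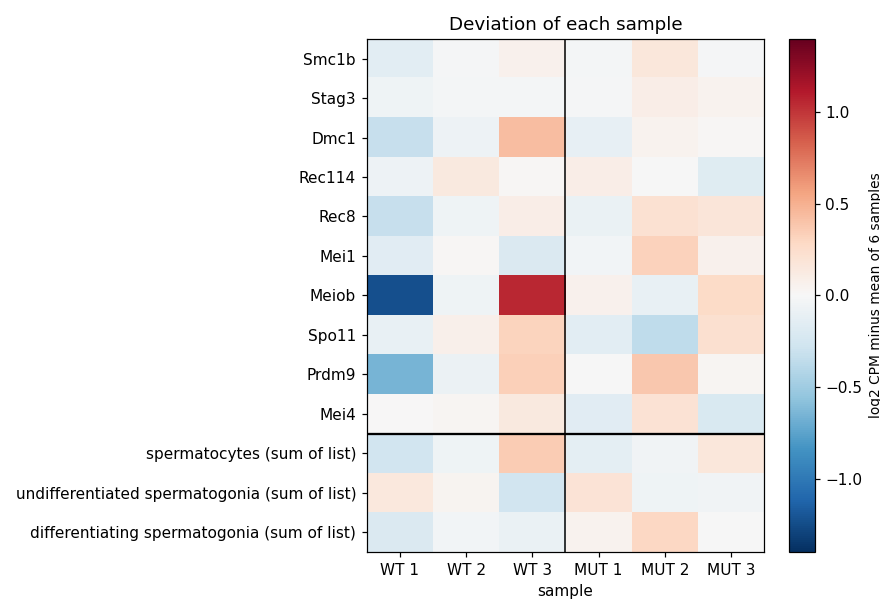
Deviation of each sample from the mean over the 6 samples on the log2 CPM scale, for the 10 genes (above the horizontal line) and for the summed levels of 3 germ cell marker lists (below it), red for higher and blue for lower. *Meiob* ranges from -1.23 in WT replicate 1 to 1.05 in WT replicate 3, and the spermatocyte list from -0.27 to 0.36 in the same samples.

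The genes whose pattern over the 6 samples was most like the mean of the 10 (Pearson's r of log2 CPM, 16657 candidate genes of at least 1 CPM) were *Taf10*, RP23-456M3.4, *Polr2l*, *H1f0* and *Mro*, with r between 0.992 and 0.998. As 388 candidates reached an r of 0.9 over 6 samples that share their library and depth, these names are a description only. Among the 10 genes themselves, the pairs most alike were *Prdm9* with *Smc1b* (r = 0.94 over 6 samples) and *Dmc1* with *Meiob* (r = 0.93 over 6 samples), and the pair least alike was *Spo11* with *Mei1* (r = -0.60 over 6 samples).

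A further 53 genes of meiotic recombination and cohesion were examined as 4 lists, and all 53 were tested. None was called by edgeR at an FDR of 0.1 in either direction, against 0.0102% of all genes tested, and 1 had an unadjusted p under 0.05, against 2.78% of all. Of their log2 fold changes 36 were positive and 17 negative (median 0.038), where 51.8% of all genes tested were positive (median 0.0066). DESeq2 and limma voom also called 0 of the 53, each with 0 at an unadjusted p under 0.05. Among the 8 genes of break formation 7 were positive, from -0.037 for *Hormad1*, an axis protein, to 0.17 for *Tex15* (median 0.070). Of the 15 genes of strand invasion 10 were positive, from -0.29 for *Spata22*, which encodes the partner of MEIOB, to 0.13 for *Brme1* (median 0.032).

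In the crossover list 7 of 12 were positive, from -0.18 for *Ccnb1ip1*, an E3 ligase of crossover designation, to 0.29 for *Cntd1* (median 0.035). The 18 cohesin genes and regulators held 12 positive values, from -0.085 for *Wapl*, the cohesin release factor, to 0.17 for *Cdca5*, which encodes sororin (unadjusted p = 0.0448, adjusted p = 0.998 from edgeR, and the 1 gene of the 53 below 0.05). The mitotic counterparts *Rad21*, *Stag1*, *Stag2* and *Smc1a* had log2 fold changes of -0.0098, 0.060, 0.0031 and 0.012. Groups did not overlap for 1 of 53 genes with MUT higher (*Hrob*) and for 1 of 53 with MUT lower (*Ccnb1ip1*), against 4.69% and 3% of all genes tested. *Hrob* is named after its values were seen.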

How the data were processed

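RNA from 6 samples (3 WT, 3 MUT, grouped and numbered by their titles) was sequenced as stranded mRNA libraries. The values are counts, deposited by the authors as fragments per gene name and not normalized, made with featureCounts 1.6.2 in paired-end mode on GENCODE vM17 with tdTomato added, ignoring strand and, by default, not counting fragments that map to several places or genes (per the file headers); the submitters' processing notes name STAR and FastQC, with no version used here, and GRCm38.p6. Total counts ran from 22729292 to 23550433 per sample. Floors cover counting error only, as PCR duplicates were not separable. Replicates of a group differed beyond sampling noise (chi-square per degree of freedom between 4.25 and 24.5).

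Library sizes were scaled by TMM in edgeR 4.0.16 (R 4.3.3), filterByExpr kept 19656 genes, and quasi-likelihood tests on genotype alone were adjusted by the Benjamini-Hochberg method over all of them at an FDR of 0.1. Standard errors came from the log2 fold change and its F statistic. Levels are TMM-normalized CPM, per kb of the exon length in the files where genes are compared; log2 CPM for patterns used a prior count of 2. DESeq2 1.42.0, the study's tool, and limma 3.58.1 (voom) were alternatives, with other size factors, other filters, the replicate number as a block, an FDR of 0.05 and each sample left out. Scripts were tested on simulated data. The labels number the samples 1 to 3 in both groups; over 10583 genes above 10 CPM, deviations from the group means correlated at 0.30, 0.16 and 0.40 in the pairs numbered 1, 2 and 3, all over 0.1, and the numbers were taken as pairs, although WT replicate 2 with MUT replicate 1 reached 0.33. Per the methods controls were littermates, but which mice shared a litter is not given in the sources used here.

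The 10 genes and the gene lists were chosen with earlier results of these data known. Named individually were the 10 genes, *Hras*, genes of a pathway list that were called, highest or lowest by log2 fold change or a mitotic counterpart, the 5 genes nearest in pattern, and overlapping genes; others are said to be chosen after their values were seen. Of the 53 pathway genes, 46 matched by symbol, 3 by an older symbol and 4 by coordinates identical to GENCODE vM21 on the same build; all 10 genes and all 66 markers matched by symbol. Promoters came from RefSeq on GRCm38.p6. One comparison of a pair of genes is not reported here. Nothing says that the samples were sequenced in batches.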

Additional observations from a re-analysis of the deposited data

How the results depend on the processing

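No gene of the 10 and none of the 53 pathway genes was called under any alternative, and the lowest adjusted p of the 10 was 0.534 (*Mei1*, replicate block in edgeR). The blocked fits changed no call among these genes. Without WT replicate 3, 2 of the 10 and 5 of the 53 had an unadjusted p under 0.05 in edgeR, as had 729 of all 20086 genes tested. In every other alternative at most 1 of the 10 and at most 1 of the 53 had such a p. Of the 10 log2 fold changes, 6 kept their sign in all 13 alternatives and 4 (*Meiob*, *Dmc1*, *Rec114*, *Smc1b*) did not, in 7 of 130 values. Without 1 sample, the median of the 10 ran from -0.045 to 0.15 and *Meiob* from -0.51 to 0.61. With 80 to 402 counts, *Meiob* was the gene for which the spread between mice limited the precision most.

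The number of genes called among all tested was 2 and became 9 with DESeq2, 4 with limma voom, 5 with no filter, 0 for genes of 10 or more counts in each sample (494 at an unadjusted p under 0.05), 13 with the replicate block in edgeR, 55 with the replicate block in DESeq2 and 1 at an FDR of 0.05. Without 1 sample it ran from 0 to 8. The number of the 10 genes whose groups did not overlap, 1 in the main analysis, was 0 with library size alone. It ran from 1 to 3 without 1 sample. Groups of fewer samples separate more readily, and the share of all genes that did so was not counted for these settings. The numbers without 1 sample therefore cannot be set against the 7.69% of the main analysis. In the order by level, 8 of the 10 genes changed rank with no division by exon length, and between 0 and 2 did without 1 sample (2 without WT replicate 3, *Meiob* and *Spo11*). The cause was not tested.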

Other observations

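Among the 53 pathway genes, *Hormad1* was lowest in WT replicate 1 and highest in WT replicate 3, at 43.6, 47.6 and 73.1 CPM in WT replicates 1 to 3 and between 50.2 and 56.0 CPM in MUT. *Spata22*, whose product binds MEIOB, spread less than *Meiob*, at 2.01, 2.39 and 3.33 CPM in WT replicates 1 to 3 and between 1.96 and 2.21 CPM in MUT. *Brca2* ran the other way, at 382, 325 and 249.5 CPM in WT replicates 1 to 3 and between 330.0 and 333 CPM in MUT. These genes were chosen after their values were seen, and no test was made.

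*Rad21l*, the other meiotic kleisin, also chosen after its values were seen, was at 10.8 ± 0.265 CPM per kb (SD, n = 6), near *Rec8* at 11.8 ± 1.58 CPM per kb (SD, n = 6), but was steadier, between 17.45 and 18.7 CPM in all 6 samples.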
